A study of Bos taurus with 6 samples.

Results

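The RNAs described here are the small, non-coding RNAs of 9 structural families that work as parts of RNA-protein particles: 7SL (signal recognition particle RNA), 7SK, Y, 5S, 5.8S, RNase P, RNase MRP, telomerase and vault RNA. Their members were taken as every entry of the table of genes whose name is the Rfam number of one of these families (Rfam is a catalogue of RNA families), whatever its level. This gave 560 of 47249 entries, of which 385 were 5S, 114 were 7SK, 23 were 7SL, 15 were Y, 8 were 5.8S, 8 were vault and 5 were RNase P, with 1 each for RNase MRP and telomerase RNA. Most annotated copies of such RNAs in a mammalian genome are pseudogenes left by retrotransposition, and for 7SL, 7SK and the RNase RNAs one or a few genes are known as the source of the RNA.

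7SL is the scaffold of the signal recognition particle, which brings ribosomes that make secreted and membrane proteins to the endoplasmic reticulum. 7SK holds the kinase P-TEFb inactive through HEXIM proteins and so limits the elongation of RNA polymerase II. RNase P cuts the leader from precursor tRNAs, RNase MRP takes part in processing the ribosomal RNA precursor, and telomerase RNA is the template for telomere repeats. 5S and 5.8S are ribosomal RNAs, Y RNAs bind the Ro60 protein, and vault RNAs lie in a large cytoplasmic particle of unsettled function. All but 5.8S and, in vertebrates, telomerase RNA are made by RNA polymerase III.

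Testes of Wandong cattle (Bos taurus) were compared between 3 calves aged 3 months, before puberty, and 3 mature bulls aged 3 years, all untreated and healthy, with 1 library of ribosome-depleted total RNA per animal. Both tables give FPKM, a fragment count divided by transcript length and library size, for genes and for single transcripts. The question asked of these RNAs was which copies carried their signal, and whether this differed between calf and bull testis.

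The library labelled calf 3 lacked most of the markers of its label. Its 6 Sertoli markers, of which WT1, FSHR and GATA4 had no signal in it (0 FPKM), summed to 14.8 FPKM, against 1456 to 1786 in calf 1 and calf 2 and 117 to 148 in the bulls. Most of its sum was SOX9, at 13.7 FPKM. That was below calf 1 and calf 2 (21.9 and 25.6 FPKM) but above the bulls (9.99 to 10.8 FPKM). Its 6 brain markers, among them myelin genes, summed to 13498 FPKM, against 4.84 to 7.46 in each of the other libraries. The part of this library in each result was not tested, and results that rest on it are given with and without it. The bulls had spermatid marker sums of 12988 to 14722 FPKM and every calf library under 0.8, so the makeup of the tissue changed with age. In bulk samples fewer cells of a type and less RNA per cell cannot be told apart.

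Although few in number, these entries held a large part of the measured signal. They took 65.4% and 65.3% of the summed FPKM in calf 1 and calf 2, 47.4% in calf 3, and 43.9%, 44.0% and 41.0% in bull 1, 2 and 3. FPKM divides by length, so a short RNA weighs more in this sum than in the reads. If the full annotated length was used, which the sources used here do not state, the annotated RNAs of the 9 families made up 20.1%, 19.3% and 7.80% of mapped fragments in the calves and 8.99%, 8.53% and 7.63% in the bulls, and on this scale calf 3 lay within the range of the bulls. A very abundant RNA also lowers the FPKM of everything else in its library, for which reason ratios within a library are given further on.

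Most of this signal came from a small number of annotated RNAs. The entries summed to 697266, 717578 and 278007 FPKM in the calves and 341009, 338599 and 300029 FPKM in the bulls. Of this, transcripts assembled from the reads within the same entries held 56191, 98729 and 27347 FPKM in the calves. In the bulls they held 52913, 63925 and 55478 FPKM. Of the 560 annotated small RNAs, 321 were at 0 FPKM in all 6 libraries in the table of transcripts, and 24 reached 1 FPKM in at least 3 libraries. These were 14 of 23 7SL, 6 of 114 7SK and 1 each of RNase P, RNase MRP, telomerase and 5.8S RNA, with none of the 5S, Y or vault RNAs. The RNA had been cut to fragments longer than most of the short RNAs, and the effective length used for FPKM is not given in the sources used here, so a low value of a short RNA does not show that it was absent. Among the 137 annotated RNAs of 200 bases or more, 23 reached 1 FPKM in at least 3 libraries, against 1 of the 423 shorter ones, the 5.8S RNA.

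The entries themselves were of 2 kinds, and this decides what their FPKM means. In 421 entries the only transcript was the annotated small RNA, with a width of 26 to 430 bases. In the other 139 entries the small RNA had been put into one gene with transcripts assembled from the reads, 370 in all, and these entries were 882 to 605358 bases wide (median 68692). In 73 of these joined entries the annotated small RNA was at 0 in all libraries, and in 5 it reached 1 FPKM in at least 3 of them. A joined entry named 5S or 7SK can therefore report the level of a long transcript and none of the small RNA.

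Of the 560 entries, 50 had at least 1 FPKM in at least 3 libraries and were tested, 19 single and 31 joined. In limma's test on log2(FPKM + 1) over all 18115 genes that passed this filter, 22 of the 50 were called higher in bulls and 2 lower, at an adjusted p under 0.05 and a change of at least 1 on the log2 scale. Over all genes tested, 35.7% were called higher and 9.61% lower. Under other scalings the counts were 10 higher and 8 lower under quantile normalization, where 21.1% and 25.1% of all genes were called, and 17 higher and 6 lower when rescaled to entries outside Rfam families, where 30.5% and 15.1% were. All 22 entries called higher were joined ones, and both called lower were single ones, a 7SK copy and telomerase RNA. In 23 of the 50, all joined, each bull was above each calf, and in 6, all single, each calf was above each bull, against 46.1% and 21.3% of all genes tested. The median log2 fold change, bull minus calf, was 1.48 for the joined entries, -0.74 for the single ones and 0.43 for all genes tested. In 18 of the 31 joined entries every calf was under 1 FPKM, so these passed the filter through the bulls alone. In them each bull had to be above each calf. The 22 calls, the count of 23 and the joined median are thus set in part by the filter. With every entry above 0 in any library fitted, the medians were 0.10 for 139 joined and -0.04 for 173 single entries. Every one of the 19 single entries had a negative fold change, from -1.85 to -0.14, and 17 of the 19 did under quantile normalization. In none of the other settings tried was a single entry called higher. Without calf 3, 20 entries were called higher, all joined, and 11 lower, all single, where 37.9% and 13.6% of all genes were called.

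**Figure D1:**
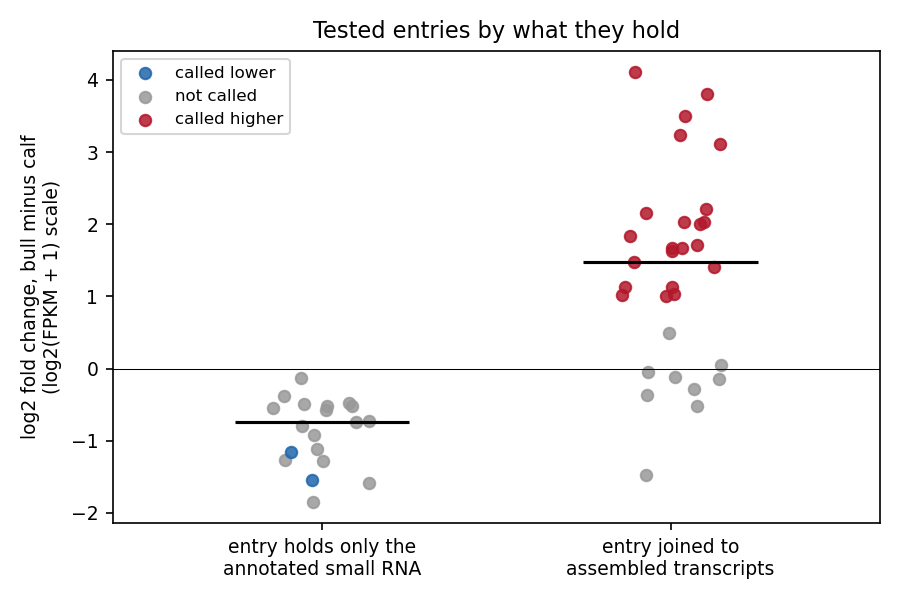
Log2 fold change, bull minus calf on the log2(FPKM + 1) scale, of the 50 tested entries of the 9 families, for entries that hold only the annotated small RNA (left, 19) and entries joined to assembled transcripts (right, 31). Each point is an entry, bars are medians (-0.74 and 1.48), red points were called higher and blue points lower. The red points all lie on the right and the blue ones on the left, and 18 of the joined entries passed the filter only through the bulls.

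Small RNAs and assembled transcripts of the same entries and libraries were also tested apart, in the table of transcripts. Of the 24 annotated small RNAs tested, 0 were called higher by limma and 2 lower, while of 28 assembled transcripts in the same entries 18 were called higher and 0 lower, against 34.8% higher and 9.37% lower over 23212 transcripts. Without calf 3 the small RNAs had 0 calls higher and 13 lower, and the assembled transcripts 18 higher and 1 lower, against 36.1% and 13.1% over all transcripts. With all libraries, 17 of the 18 assembled transcripts called higher were under 1 FPKM in every calf, passed the filter through the bulls and had to differ, so their count supports nothing. At an unadjusted p under 0.05 in limma, 0 of the 24 small RNAs were higher with all libraries and 0 without calf 3, and 3 and 18 were lower. This test was chosen after seeing the data.

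7SL RNA had the highest summed level of the 9 families. The 23 entries together had 361288, 341546 and 151310 FPKM in calf 1, 2 and 3, against 211052, 222107 and 181037 in bull 1, 2 and 3. Calf 1 and calf 2 lay above every bull and calf 3 below every bull, so the groups overlapped. Mean levels were 284715 ± 115953 in calves and 204732 ± 21252 FPKM in bulls (SD, n = 3 each). These sums and means include assembled transcripts. The annotated 7SL RNAs alone summed to 305170, 270570 and 149305 FPKM in the calves and 158302, 166120 and 138539 FPKM in the bulls. On that sum calf 3 lay within the range of the bulls.

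4 of the 23 entries carried 96.6% to 99.5% of this sum in each library. ENSBTAG00000049916 (chr10:42627500-42629849) is a joined entry that covers the whole span of RPS29, a ribosomal protein gene. Its annotated RNA (chr10:42629551-42629849), at the position of RN7SL1 in RefSeq, lies 47 bases from RPS29. ENSBTAG00000055172 (chr10:42820456-42820754) and the annotated RNA of ENSBTAG00000050180 (chr10:42834493-42834792) start 14037 bases apart within the span of the KLHDC2 entry. The entry ENSBTAG00000050180 as a whole (chr10:42820452-42834823) runs over both copies, because 4 assembled transcripts span them. ENSBTAG00000047947 (chr8:98676196-98676495) lies in the span of TMEM245. The copies belong to one RNA family, and how reads that match several copies were shared was not given in the sources used here, so their separate levels are uncertain.

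The annotated RNA of ENSBTAG00000050180 had 89233, 94001 and 46568 FPKM in calf 1, 2 and 3, and 43929, 45924 and 45862 FPKM in the bulls. Its lowest calf library thus stood just above the highest bull. The assembled transcripts of the same entry had 56047, 70884 and 1997 FPKM in the calves and 52722, 55963 and 42475 FPKM in the bulls. Only calf 3 was nearly without them, and the whole entry's log2 fold change of -0.14 (limma adjusted p = 0.987) mixes the levels of both.

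Other copies changed places between libraries of the same group. ENSBTAG00000049916 had 94349, 81779 and 27010 FPKM in the calves and 67581, 73378 and 23183 FPKM in the bulls. ENSBTAG00000055172 had 64651, 58506 and 41193 FPKM in the calves and 20652, 24301 and 46147 FPKM in the bulls. Bull 3 was thus the lowest bull for the first copy and the highest for the second, and calf 3 the lowest calf for both. ENSBTAG00000047947 had 55093, 34039 and 29393 FPKM in the calves and 25061, 21348 and 21967 FPKM in the bulls, close to each other in the bulls but not in the calves, and here the groups did not overlap.

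Added together, the 4 annotated 7SL RNAs varied less between bulls than the copies that changed places, though not less than the other 2. The sum was 157196, 164928 and 137137 FPKM in bull 1, 2 and 3, a coefficient of variation of 9.37%, against 50.2% for ENSBTAG00000049916 and 45.4% for ENSBTAG00000055172, and 2.51% and 8.73% for the annotated RNAs of ENSBTAG00000050180 and ENSBTAG00000047947. In calf 1 and calf 2 the sum was 303256 and 268233 FPKM, 1.87 times the bull mean, and in calf 3 it was 144156 FPKM, within the range of the bulls. None of the 4 entries was called (limma adjusted p = 0.821 to 0.987). Their SEs of 2.57 to 6.12 came mostly from limma's trend of variance on level. Without the trend, a setting chosen after seeing the data, the SEs were 0.26 to 0.66. None was called there either (limma adjusted p = 0.0550 to 0.822). Under quantile normalization 3 of the 4 had positive fold changes (0.21 to 0.48). Without calf 3 all 4 had negative fold changes, from -1.11 to -0.70, and none was called (limma adjusted p = 0.0583 to 0.269). In settings chosen after seeing the data, also without calf 3, limma called ENSBTAG00000055172 lower with no trend (adjusted p = 0.0271) and when rescaled to entries outside Rfam families (0.0390), and ENSBTAG00000047947 when rescaled (0.0266). With no trend and without calf 3, ENSBTAG00000050180, ENSBTAG00000047947 and ENSBTAG00000049916 had limma adjusted p of 0.00363, 0.0101 and 0.174. Their changes of -0.70, -0.93 and -0.85 were short of the threshold. The annotated RNA of ENSBTAG00000050180 was called lower without calf 3 in the table of transcripts (-1.02, limma adjusted p = 0.0467).

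**Figure D2:**
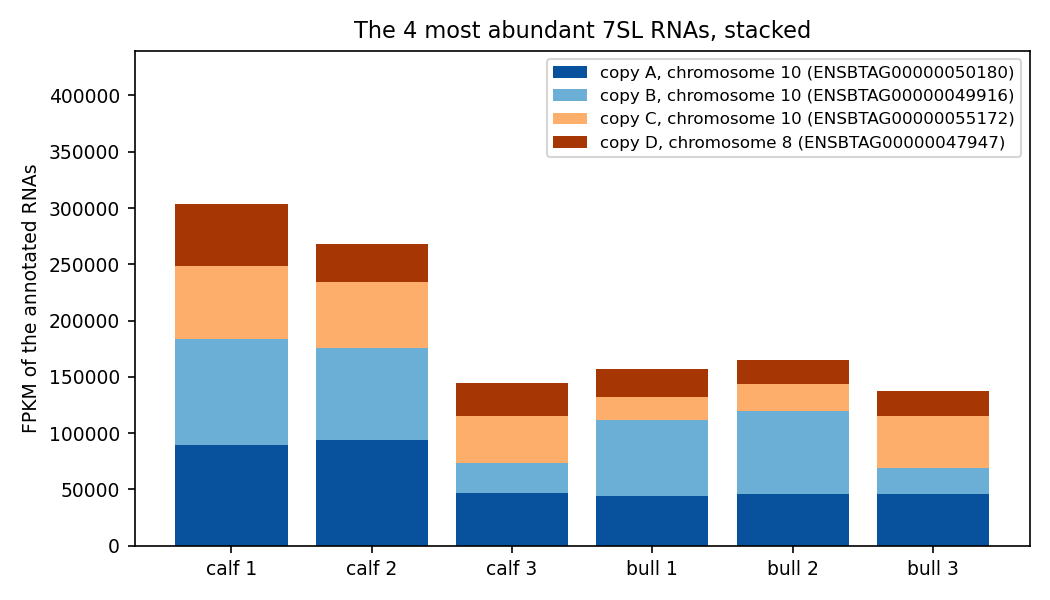
FPKM of the annotated RNAs of the 4 most abundant 7SL entries in each library, stacked. Bull 3 has less of ENSBTAG00000049916 and more of ENSBTAG00000055172 than bull 1 and bull 2, while the stacks of the 3 bulls lie between 137137 and 164928 FPKM and those of calf 1 and calf 2 at 303256 and 268233 FPKM.

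The other 7SL copies were far lower. ENSBTAG00000047242 had 496 to 1237 FPKM over the 6 libraries, and ENSBTAG00000046888 had 56.3 to 218 FPKM. 9 of the 23 had no library at 1 FPKM. Without calf 3, limma called 4 of the 14 tested 7SL entries lower in bulls, where 13.6% of all genes were called lower. The 4 were ENSBTAG00000046888, ENSBTAG00000049700, ENSBTAG00000047359 and ENSBTAG00000048346, with log2 fold changes of -1.23 to -1.05. These were named after their values were seen, as was ENSBTAG00000047789 (chr23:30019010-30019307), which had 550 and 723 FPKM in calf 1 and calf 2, 4245 FPKM in calf 3 and 275 to 432 FPKM in the bulls. It was thus highest in the library with the brain markers.

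7SK RNA came almost entirely from a single locus. ENSBTAG00000043250 (chr23:25224255-25224585), a short distance from GSTA4, held 94.1% to 96.2% of the 7SK sum in each library. It had 210199 and 204973 FPKM in calf 1 and calf 2, 59903 FPKM in calf 3, and 64099, 53813 and 52659 FPKM in bull 1, 2 and 3. The first 2 calves stood far above the rest, at 3.65 times the bull mean, and calf 3 lay within the range of the bulls. In every calf library it was at rank 1 of all 47249 entries by FPKM, and in the bulls it was at rank 2 or 3.

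The 7SK locus was not called with all libraries, at a log2 fold change of -1.28 (SE 5.59, limma adjusted p = 0.861). Its SE came mostly from limma's trend of variance on level, which gave the 5 entries above a mean log2 level of 15 a median prior SD of 8.52, against 0.279 for all genes. Fitted without the trend, a setting chosen after seeing the data, the same change had an SE of 0.51 and an adjusted p of 0.0796. Without calf 3 it was -1.87 and called lower by limma, with an adjusted p of 0.0134 with the trend and 7.33e-05 without it.

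Lesser 7SK copies were measured at a few percent of the main one or less, and were also high in calf 1 and calf 2. ENSBTAG00000043482 (chr22:45101566-45101869), within ERC2, had 8963, 10102 and 3436 FPKM in the calves and 2222, 2011 and 2593 FPKM in the bulls, which was 3.47% to 5.74% of the main locus in the same library. ENSBTAG00000043171 (chr8:18790530-18790834) had 476, 442 and 128 FPKM in the calves and 109, 104 and 166 FPKM in the bulls. ENSBTAG00000043639 (chr5:38087770-38088094), within PRICKLE1, had 353, 349 and 176 FPKM in the calves and 90.1, 82.4 and 116 FPKM in the bulls. Every calf was above every bull for the copies on chromosomes 22 and 5, and calf 3 was always the lowest calf.

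Of these copies, limma called ENSBTAG00000043639 lower in bulls, with a log2 fold change of -1.54 (SE 0.34, adjusted p = 0.00933). ENSBTAG00000043482 and ENSBTAG00000043171 had log2 fold changes of -1.58 and -1.27 and were not called (limma adjusted p = 0.139 and 0.0994). Without calf 3 both were called lower, at -2.07 and -1.89 (limma adjusted p = 0.000154 and 0.000355). Their shares of the main locus were 0.170% to 0.315% for ENSBTAG00000043171 and 0.141% to 0.294% for ENSBTAG00000043639, and whether they held reads of the main RNA was not tested.

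RNase P RNA also came from a single locus, ENSBTAG00000044427 (chr10:26778581-26778913), which lies beside PARP2. It had 83614, 85711 and 35101 FPKM in the calves and 54862, 45672 and 44992 FPKM in the bulls. Calf 1 and calf 2 were the highest and calf 3 the lowest of all libraries, and the change was not called with or without calf 3 (log2 fold change -0.39, limma adjusted p = 0.943, and -0.81, adjusted p = 0.123).

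The other RNase P entries were at or near 0. ENSBTAG00000044600 had 2.95 FPKM in calf 3 and 0.202 to 0.350 FPKM elsewhere. ENSBTAG00000044337, a joined entry, had 1.82 FPKM in calf 3 and 0.0180 to 0.0534 FPKM elsewhere. ENSBTAG00000048405 and ENSBTAG00000045394 were listed at 0 in all 6 libraries.

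RNase MRP RNA, from its only entry ENSBTAG00000042458 (chr8:59833118-59833395, at the position of RMRP in RefSeq), varied widely between libraries. It had 30727 and 43208 FPKM in calf 1 and calf 2, 1944 FPKM in calf 3 and 7865, 6427 and 5009 FPKM in the bulls. Calf 1 and calf 2 averaged 5.75 times the bulls, and calf 3 was below every bull. The log2 fold change was -1.12 (SE 1.66, limma adjusted p = 0.595) with all libraries, and -2.53 (SE 0.32, adjusted p = 0.000543) without calf 3, where it was called lower.

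Ratios within a library are free of the library's scale, and they showed that these RNAs did not move by the same factor. The level of the main 7SK RNA was 2.51, 2.39 and 1.71 times that of RNase P RNA in the calves, and 1.17, 1.18 and 1.17 times in the bulls. RNase MRP over RNase P was 0.367, 0.504 and 0.0554 in the calves and 0.143, 0.141 and 0.111 in the bulls. The sum of the 4 7SL entries over RNase P was 4.30, 3.96 and 4.16 in the calves and 3.83, 4.84 and 3.99 in the bulls. This sum is of whole entries and includes assembled transcripts. Those of ENSBTAG00000050180 had 1997 FPKM in calf 3 and 42475 to 70884 FPKM in the other libraries. Every calf exceeded every bull for 7SK over RNase P, calf 3 included, whereas the groups overlapped for 7SL and, through calf 3, for RNase MRP.

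**Figure D3:**
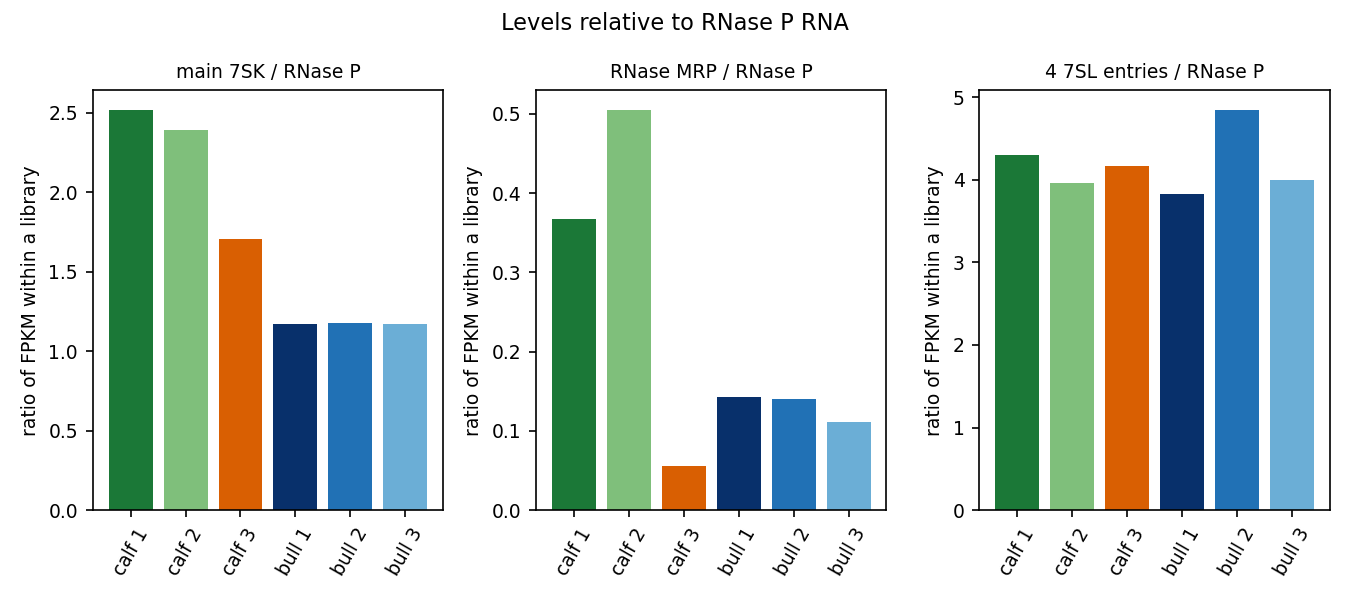
Ratio of FPKM within each library of the main 7SK RNA, RNase MRP RNA and the 4 most abundant 7SL entries to RNase P RNA. The 7SK ratio is 1.71 to 2.51 in the calves and 1.17 to 1.18 in the bulls, the RNase MRP ratio is lowest in calf 3 (0.0554), and the 7SL ratio overlaps between the groups.

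Telomerase RNA was called lower in bulls whichever library was left out and under every other setting tried. ENSBTAG00000043157 (chr1:97612804-97613233, overlapping TERC in RefSeq, near ACTRT3) had 154, 144 and 98.0 FPKM in the calves and 53.6, 62.7 and 57.4 FPKM in the bulls. Each calf was above each bull, with means of 132 ± 29.9 and 57.9 ± 4.54 FPKM (SD, n = 3 each). The log2 fold change was -1.15 (SE 0.22, limma adjusted p = 0.00556), and -1.35 without calf 3 (adjusted p = 7.50e-05).

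**Figure D4:**
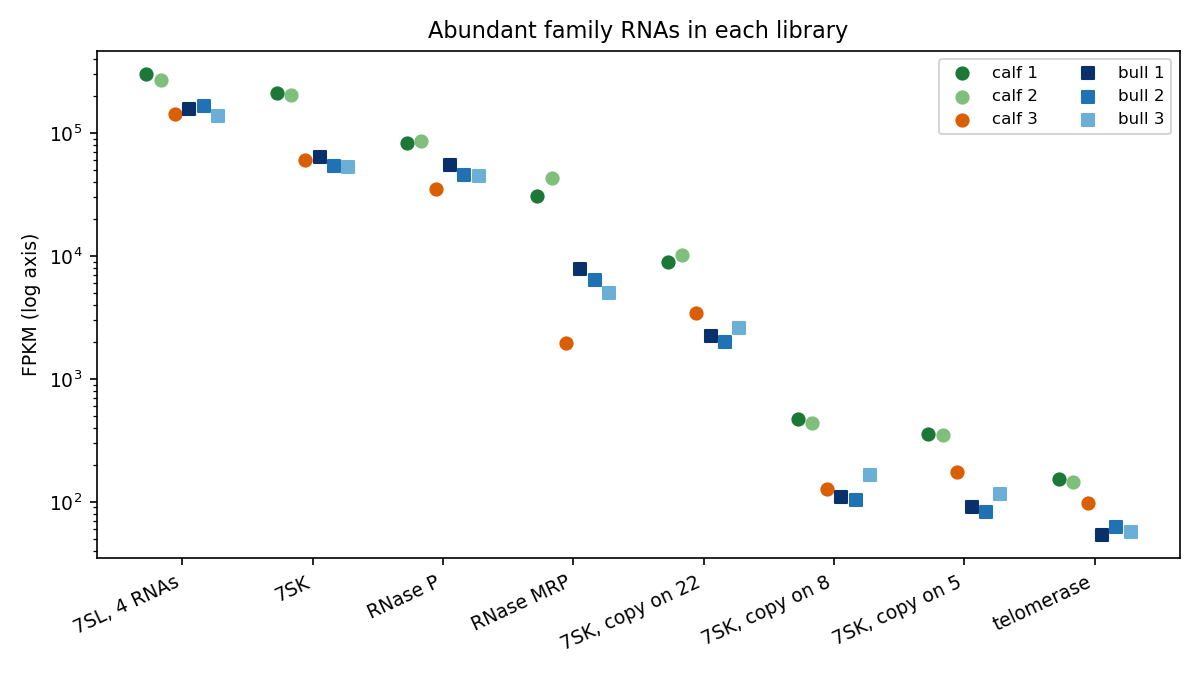
FPKM (log axis) in each library of the 4 summed annotated 7SL RNAs, the main 7SK RNA, RNase P RNA, RNase MRP RNA, 3 lesser 7SK copies (by chromosome) and telomerase RNA. Circles are calves and squares are bulls. Calf 1 and calf 2 lie above the bulls for every RNA shown, and calf 3 (orange) lies above all bulls for 3 of the 8, the 7SK copies on chromosomes 22 and 5 and telomerase RNA.

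The 5.8S signal came from a joined entry of the ribosomal DNA, ENSBTAG00000048608 (chr27:6219484-6226184). The whole entry had 1415, 31004 and 25777 FPKM in the calves and 485, 8145 and 13200 FPKM in the bulls, and its levels ranged widely in both groups. The annotated 5.8S RNA in it (chr27:6222648-6222800) had 1387, 3306 and 523 FPKM in the calves and 479, 362 and 401 FPKM in the bulls, so that each calf was above each bull. It was not called with all libraries (limma log2 fold change -1.70, adjusted p = 0.0860, in the table of transcripts), and without calf 3 it was called lower at -2.38 (adjusted p = 0.00321).

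Ribosomal RNA was depleted before sequencing and ribosomal reads were removed again before mapping, per the study's methods. Levels of 5S and 5.8S RNA and of transcripts across ribosomal DNA therefore carry what both steps left in each library. Of the other 5.8S entries, ENSBTAG00000040416, a joined entry, reached 0.979 FPKM, ENSBTAG00000052217 reached 0.325 FPKM and ENSBTAG00000045481 reached 0.0763 FPKM, and 4 were listed at 0 throughout.

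5S, the largest family, held little small RNA signal. The annotated 5S RNAs of all 385 entries summed to 12.6, 18.7 and 15.3 FPKM in the calves and 4.98, 8.66 and 4.97 FPKM in the bulls, and the highest single one had 3.62 FPKM. Every calf was above every bull. The whole entries summed to 51.8, 68.1 and 81.1 FPKM in the calves and 82.9, 106 and 104 FPKM in the bulls, where each bull was above each calf. The direction for this family thus turned on whether the assembled transcripts were counted.

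At 12 of the 5S entries RefSeq has a 5S ribosomal RNA gene at the same position. In 7 of these the entry was listed at 0 in all libraries, and the highest annotated RNA among the 12 had 0.569 FPKM. The highest entry of the 12, ENSBTAG00000052390, is a joined one, with 12.3 FPKM in calf 3 and 0.352 to 1.07 FPKM in the other libraries, of which the annotated RNA had 0.0436 FPKM in calf 3.

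Y RNA was measured at the lowest levels beside vault RNA. The annotated Y RNAs of the 15 entries summed to 0.513, 0.465 and 0.741 FPKM in the calves and 0.484, 0.504 and 0.492 FPKM in the bulls. The groups overlapped. Whole entries summed to 0.671, 0.953 and 1.04 FPKM in the calves and 5.82, 4.20 and 5.20 FPKM in the bulls, and the assembled transcripts made up the difference. The highest annotated Y RNA was that of ENSBTAG00000042761 (chr10:12458565-12458672), within HACD3, with 0.427, 0.421 and 0.634 FPKM in the calves and 0.153, 0.272 and 0.146 FPKM in the bulls.

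**Figure D5:**
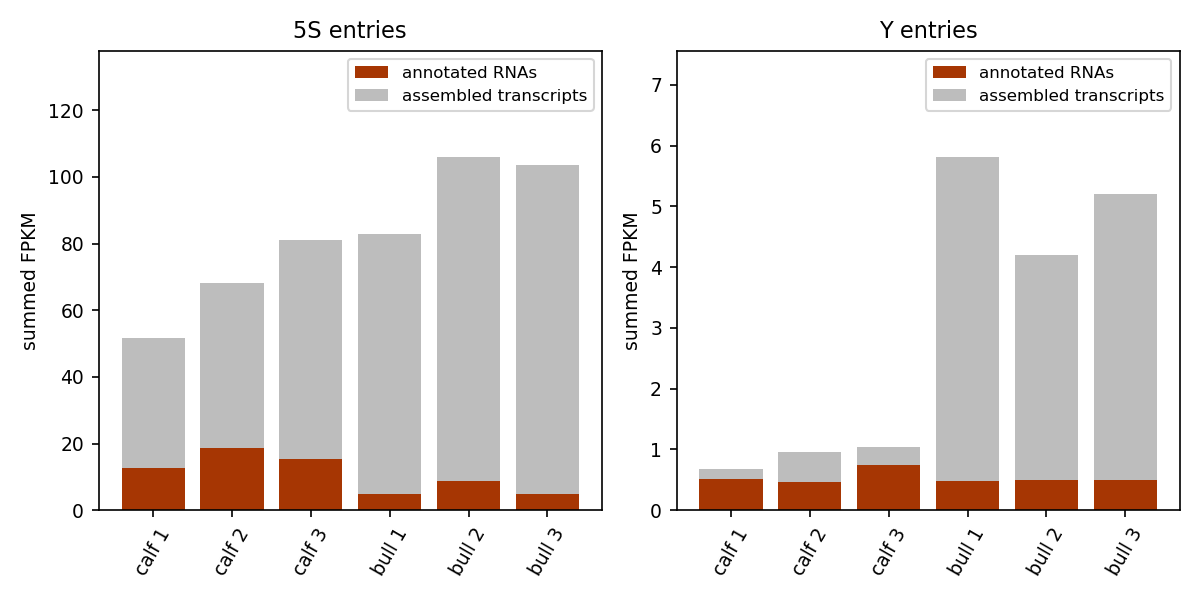
Summed FPKM of all 385 5S entries (left) and all 15 Y entries (right) in each library, split into the annotated small RNAs (brown) and the assembled transcripts of the same entries (grey). The 5S whole sums are 51.8 to 81.1 in calves and 82.9 to 106 in bulls, while the annotated 5S RNAs are 12.6 to 18.7 in calves and 4.97 to 8.66 in bulls.

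Among vault entries, ENSBTAG00000028358 (chr7:51833056-51850215), near ZMAT2, held the annotated RNA with the highest level. That RNA had 0.191, 0 and 0.172 FPKM in the calves and 0.610, 0.755 and 1.46 FPKM in the bulls. Each bull was above each calf, but no vault entry reached the filter and none was tested. ENSBTAG00000043753 had 1.56 FPKM in calf 3 and at most 0.291 FPKM elsewhere, and its annotated RNA was at 0 in all of them. 5 of the 8 vault entries were listed at 0 in all libraries.

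The 22 entries called higher in bulls were 12 5S, 9 7SK and 1 Y entry, 13255 to 516071 bases wide. In 8 of them the annotated small RNA was at 0 in every library, and over the 22 its median share of the entry's FPKM was 0.476% and its highest share 6.33%. In the bulls no annotated RNA among them passed 0.417 FPKM. In 18 of the 22 each calf was under 1 FPKM, so that these entries passed the filter through the bulls and had to differ. Of the 22 entries, 13 overlapped the span of another gene.

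The largest rise was at ENSBTAG00000044523 (chr8:105242478-105335690), named as 5S, which holds 16 assembled transcripts between PAPPA and ASTN2. It was listed at 0 in all 3 calves and had 11.8, 19.1 and 18.9 FPKM in the bulls, and its annotated RNA was at 0 in every library. ENSBTAG00000028794 (chr23:37603700-37616954), in the neighbourhood of E2F3, had 0, 0.120 and 0 FPKM in the calves and 5.84, 7.59 and 11.2 FPKM in the bulls. ENSBTAG00000028641 (chr20:27751745-27966831) had at most 0.0958 FPKM in the calves and 2.57, 3.06 and 4.33 FPKM in the bulls. All 3 were called higher by limma, with log2 fold changes on the log2(FPKM + 1) scale of 4.11, 3.11 and 2.03 (adjusted p = 3.73e-05, 0.000126 and 0.000192). In all 3 every calf was under 1 FPKM, so they had to differ and these p-values lend no support.

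Among 7SK entries the largest rises were at ENSBTAG00000047427 (chr27:12750686-12938497), ENSBTAG00000045138 (chr1:84974267-85140726) and ENSBTAG00000043746 (chr9:58616241-58639433). The first had 0.0254, 0.00940 and 0.527 FPKM in the calves and 23.7, 9.03 and 16.2 FPKM in the bulls, with its annotated RNA at 0 throughout. The second had 0.270, 0.0353 and 1.48 FPKM in the calves and 16.2, 11.8 and 20.6 FPKM in the bulls. Levels of the third were 0.0324, 0.0161 and 0 FPKM in the calves and 8.45, 4.79 and 15.3 FPKM in the bulls. Their log2 fold changes were 3.80, 3.50 and 3.24 (limma adjusted p = 0.000342, 0.000536 and 0.000652). In ENSBTAG00000047427 and ENSBTAG00000043746 every calf was under 1 FPKM, so they had to differ and their p-values lend no support. The main 7SK RNA had a negative fold change, which was not called with all libraries.

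In the Y family ENSBTAG00000043764 (chr28:9388790-9420369), beside MTR, was the only entry tested. It had 0.0518, 0.154 and 0.0319 FPKM in the calves and 4.60, 2.85 and 2.91 FPKM in the bulls, and was called higher with a log2 fold change of 2.02 (limma adjusted p = 0.000230). This entry passed the filter through the bulls alone and had to differ, so its p-value lends no support. The annotated Y RNA in it was at 0 in all libraries except bull 2, where it had 0.0681 FPKM. Another Y entry, ENSBTAG00000053334, had 0.0954 to 0.334 FPKM in the calves and 0.564 to 1.28 FPKM in the bulls, and ENSBTAG00000043304 reached 0.590 FPKM in bull 3.

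Joined entries did not rise throughout. Of the 31 tested, 24 had a positive fold change and 7 a negative one. ENSBTAG00000055284, a 5S entry on an unplaced scaffold, had 5.09, 4.05 and 2.62 FPKM in the calves and 1.74, 2.72 and 2.70 FPKM in the bulls, and was not called (log2 fold change -0.52, limma adjusted p = 0.137). ENSBTAG00000029651 (chr20:19698957-19912370), within PDE4D, had 6.87 FPKM in calf 3 and 0.879 to 2.95 FPKM in the other libraries.

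The library labelled calf 3 also differed from calf 1 and calf 2 in single entries. In 25 of the 560 it was at least 4 times the mean of calf 1 and calf 2 and at least 1 FPKM, and 17 of these were joined entries. Conversely, of the 43 entries with a mean of at least 1 FPKM in calf 1 and calf 2, 29 had at most 1/2 of that level in calf 3, among them the main 7SK, RNase P and RNase MRP RNAs. The shares of all genes that did the same were not counted, so these counts show nothing particular to these RNAs.

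The protein partners of these RNAs were read from the same test, for 72 genes listed from general knowledge. Of these, 70 were found and 68 tested, of which 14 were called higher in bulls and 7 lower, where 35.7% and 9.61% of all genes were called, and their median log2 fold change was 0.10, against 0.43 for all genes. Without calf 3 the counts were 12 and 7, against 37.9% and 13.6% of all genes. The counts by complex given next are to be read against these shares, and rest on few genes each.

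Of the 8 proteins of the signal recognition particle and its receptor, 2 were called higher, against 35.7% of all genes. SRP54, the GTPase that binds the signal sequence, had 21.3, 23.1 and 31.5 FPKM in the calves and 79.7, 56.7 and 77.2 FPKM in the bulls. SRP72, which binds 7SL RNA together with SRP68, had 21.8, 24.6 and 15.3 FPKM in the calves and 71.9, 68.2 and 74.8 FPKM in the bulls. Their log2 fold changes were 1.46 and 1.78 (limma adjusted p = 0.00213 and 0.000626).

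The proteins of the 7SK particle were called in both directions, 2 higher and 2 lower of 7. MEPCE, the enzyme that caps 7SK RNA, had 20.2, 18.7 and 9.04 FPKM in the calves and 86.7, 81.9 and 78.8 FPKM in the bulls (log2 fold change 2.37, limma adjusted p = 0.00107). HEXIM2 rose with it, from 1.44 to 4.58 FPKM in the calves to 17.1 to 21.7 FPKM in the bulls (log2 fold change 2.30, limma adjusted p = 0.00211). HEXIM1, the other inhibitor of P-TEFb, fell, from 31.7, 38.6 and 27.3 FPKM in the calves to 10.7, 9.30 and 12.1 FPKM in the bulls (log2 fold change -1.51, limma adjusted p = 0.000902).

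For both inhibitors and MEPCE the calf and bull libraries did not overlap. The cyclin CCNT2 fell by 1.04 on the log2 scale (limma adjusted p = 0.00225), and by 0.96 without calf 3, short of the threshold. LARP7, which binds the end of 7SK RNA, had 10.2 to 22.6 FPKM in the calves and 11.6 to 18.8 FPKM in the bulls and was not called (limma adjusted p = 0.539).

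Of 10 tested subunits shared by RNase P and RNase MRP or found in one of them, 5 were called higher by limma and 0 lower. Without calf 3, 3 were called higher and 0 lower. Over all genes 35.7% were called higher, and 37.9% without calf 3. At an unadjusted p under 0.05 in limma, 6 subunits were higher and 1 lower, and 7 and 3 without calf 3. POP1 had 2.13, 1.76 and 1.62 FPKM in the calves and 13.8, 6.24 and 6.57 FPKM in the bulls. RPP21 had 2.22, 3.70 and 4.0 FPKM in the calves and 14.3, 10.4 and 15.6 FPKM in the bulls, and RPP38 and POP4 rose by 1.70 and 1.10 on the log2 scale. The adjusted p of these 4 in limma lay between 0.000674 and 0.00469. RPP40 was the fifth (1.02, limma adjusted p = 0.0453), and neither it nor POP4 reached the threshold without calf 3.

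Of the vault proteins 2 of 3 fell. MVP, the major vault protein, had 14.7, 10.6 and 8.41 FPKM in the calves and 3.65, 3.60 and 4.02 FPKM in the bulls, and TEP1 had 3.24, 2.75 and 2.91 FPKM in the calves and 0.545, 0.735 and 0.687 FPKM in the bulls. Their log2 fold changes were -1.33 and -1.26 (limma adjusted p = 0.00352 and 0.000407). TEP1 was under 1 FPKM in every bull, so it passed the filter through the calves alone and had to differ. Its p-value lends no support. No telomerase partner was called by limma among 5 tested, with 0 at an unadjusted p under 0.05 and 3 lower at that p without calf 3, and neither was RO60 or SSB, the partners of Y RNA, although RO60 had a log2 fold change of -0.72 with an adjusted p in limma of 0.00595.

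The ribosomal proteins that bind 5S RNA before its entry into the ribosome, RPL5 and RPL11, were not called with all libraries, and calf 3 decided this. RPL5 had 1432 and 1483 FPKM in calf 1 and calf 2, 202 FPKM in calf 3, and 209 to 234 FPKM in the bulls. RPL11 had 133 and 49.7 FPKM in calf 1 and calf 2, 12.2 FPKM in calf 3 and 10.5 to 22.8 FPKM in the bulls. Without calf 3 both were called lower, at -2.74 and -2.46 (limma adjusted p = 5.08e-06 and 0.00414). They were named after their values were seen.

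Of the 30 tested genes of RNA polymerase III and its factors, 5 were called higher and 3 lower, against 35.7% and 9.61% of all genes, with a median log2 fold change of 0.12. SNAPC3, of the complex that recognises promoters of the 7SK, RNase P and RNase MRP type, had 8.23, 8.65 and 12.4 FPKM in the calves and 55.3, 43.5 and 48.2 FPKM in the bulls. POLR3C, a polymerase subunit, had 10.8, 9.69 and 5.49 FPKM in the calves and 34.6, 32.8 and 32.0 FPKM in the bulls. BRF1, the initiation factor used at the 5S and tRNA type of promoter, and SNAPC2 rose by 1.48 and 1.25 on the log2 scale. Over these 4 the limma adjusted p was between 0.000238 and 0.00514.

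The fifth called higher was POLR1C (1.16), and the 3 called lower were BDP1 (-1.19), GTF3C4 (-1.09) and POLR1D (-1.0), with limma adjusted p of 0.00328 to 0.0393 over these 4, named after their values were seen. POLR1C and GTF3C4 did not reach the threshold without calf 3. Spermatid markers rose in the same libraries as the partners called higher, and their part in those calls was not tested.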

How the data were processed

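The authors isolated total RNA from testis, depleted ribosomal RNA and sequenced 1 library per animal. Per the study's methods, ribosomal reads were removed with Bowtie2, reads mapped with TopHat2 and transcripts assembled with StringTie. The deposited values are FPKM per gene and per transcript, as made by the authors. The tool that made the gene values and the handling of reads with several matches are not given in the sources used here. The tables hold no counts, so no counting interval is given, although the study lists the reads of each library. The tables state no build, and the study's methods name UMD3.1. Positions are printed as the tables give them: scaffold names are those of ARS-UCD, and 99.7% of 16298 symbols overlapped their RefSeq gene in ARS-UCD2.0, which was used for names only.

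FPKM was tested as log2(FPKM + 1) for 18115 genes with at least 1 FPKM in at least 3 of 6 libraries, with limma 3.58.1 in R 4.3.3 (two-sided, trended empirical Bayes, Benjamini-Hochberg over all genes). Entries were called where the adjusted p was under 0.05 and the change was 1 or more on the log2 scale, in either direction. The procedure was tested on simulated data whose spread was taken from the libraries other than calf 3, so this does not cover the spread that calf 3 adds. Family sums have no test. Samples were grouped by title. With 1 library per animal, p-values measure the spread between these animals and libraries together. Same-numbered calves and bulls did not deviate together (correlations 0.0277, 0.0246 and 0.0341), so no pairing was used. Tables were prepared with Python 3.11.15, pandas 2.3.3 and matplotlib 3.10.9.

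Named loci were all those of families with 5 or fewer entries, in larger families the 4 highest by mean FPKM and up to 3 called with the largest rise and fall, loci at a RefSeq gene of the same RNA, and called partner genes up to 4 per complex. Members, lists and tests were chosen with earlier results of these data known. Alternatives covered the pseudocount, filter, scaling, weights, block, trend and each library left out.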

Additional observations from a re-analysis of the deposited data

How the results depend on the processing

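FPKM fixes neither depth nor absolute amount, and with 3 libraries a group 1 library can decide a call. Under other settings 627 of 708 values for single named genes and loci stayed on their side of the threshold, 58 fell short of it, 23 passed it and 0 that were called in either setting changed sign. Scaling moved all genes: the median log2 fold change of 0.43 became 0.11 when rescaled to the summed FPKM of entries outside Rfam families and -0.26 under quantile normalization. Under quantile normalization 3 of the 4 main 7SL entries had positive fold changes (0.21 to 0.48), none called.

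Of the family entries 22 were called higher and 2 lower. Those called higher numbered 5 with a pseudocount of 5, 4 with a filter at 5 FPKM and 10 under quantile normalization, and 0 annotated small RNAs in the table of transcripts, with or without calf 3. Over all genes, 20.7% were called higher with that pseudocount, 37.0% with that filter and 21.1% under quantile normalization. Those called lower numbered 8 under quantile normalization (25.1% of all genes), 6 when rescaled (15.1%) and 11 with array weights (13.6%). Leaving out 1 library gave 18 to 20 higher and 2 to 11 lower, where 11 is without calf 3. Also without calf 3, 12 were lower with no trend (13.6% of all genes), 16 when rescaled (18.5%) and 13 annotated RNAs in the table of transcripts (13.1% of all transcripts). These last settings were chosen after seeing the data.

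Partner genes called higher (14) numbered 9 with a pseudocount of 5 and 8 under quantile normalization, and those called lower (7) numbered 1 and 16, and 12 when rescaled without calf 3. The calls over all genes shifted too. With that pseudocount 20.7% were called higher and 3.31% lower, and under quantile normalization 21.1% and 25.1%. When rescaled without calf 3, 18.5% of all genes were called lower. Leaving out 1 library gave 11 to 16 higher and 5 to 7 lower.

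The log2 ratio of summed FPKM, bull over calf, was 2.51 for Y, 2.14 when rescaled, 1.0 without its top entry and -0.22 for annotated RNAs only. For 5S it was 0.54, 0.17 when rescaled and -1.33 for annotated RNAs only. For RNase P it was -0.49, and -2.66 without the main locus. For telomerase RNA it was -1.19, and -1.53 when rescaled. For vault it was 0.98, -1.27 without its top entry, 2.69 for annotated RNAs only, and 0.49 to 2.71 with 1 library left out, the highest without calf 3. The cause of these shifts was not tested.

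With the replicate number as a block, 21 family entries were called higher and 2 lower, and 13 and 7 partner genes. Over all genes the shares were 35.5% and 9.33%. Since same-numbered animals did not pair, the block stands here only as a check.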
